A study of Mus musculus with 2 samples.

Results

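Bile acid, drug and lipid transporters are the membrane proteins that carry solutes into hepatocytes and out of them again. They were taken as all genes whose symbol starts with Slco, Slc22a, Slc10a or Abc (subfamilies a, b, c, d and g) followed by a number, which gave 92 of the 19073 measured features. These were 14 Slco genes (organic anion transporting polypeptides), 25 Slc22a genes (organic cation, anion and carnitine carriers), 7 Slc10a genes (bile acid carriers) and 46 ATP-binding cassette (ABC) genes. Both groups came from livers of male p16-Tom mice on a C57BL/6 background, which were treated with carbon tetrachloride (CCl4), a hepatotoxin that injures the pericentral zone, for 4 weeks and with tamoxifen. The mice were heterozygous for p16-CreERT2 and for R26-CAG-LSL-tdTomato-WPRE, so tamoxifen switched on the tdTomato reporter in cells that were using the p16 promoter at that time. The reporter therefore marks p16 promoter history and not the p16 level of the moment. Fixed, dissociated cells that stained with Hoechst (DNA) and with MitoBrilliant (mitochondria) were divided by flow cytometry into a Tom- (p16low) and a Tom+ (p16high) fraction, and each gave 1 single-cell library. The number and age of the mice were not given in the sources used here, and every cell had received CCl4 and tamoxifen. With 1 library per fraction no test between fractions was possible, and all intervals below are 95% intervals that cover counting error only.

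Carriers work in sequence. Sinusoidal carriers of the SLCO, SLC10 and SLC22 families take up bile acids, bilirubin, hormones, carnitine and drugs from blood. ABC pumps of the canalicular membrane then secrete bile salts, phospholipid, sterols and conjugates into bile, while other ABC pumps on the sinusoidal side return conjugates to blood when canalicular export is limited. Blood flows along the hepatocyte plate from the portal tract (zone 1, periportal) to the central vein (zone 3, pericentral), and many hepatocyte genes are graded along this axis.

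After filtering, 10919 Tom- and 10230 Tom+ hepatocytes with 392622680 and 406714143 unique molecular identifiers (UMIs, 1 per captured molecule) were analysed. Their median depth was 32365 UMIs in Tom- and 35332.5 in Tom+ cells. Of these hepatocytes 1582 cells, in 2 clusters led by genes of other cell types such as Dnase1l3, Cd5l and Igkc, passed the limits on cells and clusters and were kept. Without these cells the counts of called carriers by layer and by Tom fraction given below were the same. The libraries shared 503 barcodes, 372 of them among kept cells. The doublet caller marked 0 cells in either library, which cannot be taken as absence of doublets, and any doublets remained. Hepatocytes were divided into 5 layers of equal size over both libraries by a score of zone 1 and zone 3 landmark genes, with layer 1 at the periportal and layer 5 at the pericentral end. Of 2 genes known from the middle of the lobule that were not in the score, Igfbp2 peaked in layer 4, at 658 UMIs per 1000000 UMIs (CPM) in Tom- and 599.8 CPM in Tom+ cells. Hamp peaked in layer 2, at 169.7 and 129 CPM, and was lowest in layer 4 of Tom- cells (75.8 CPM) and in layer 1 of Tom+ cells (79.1 CPM), so these genes did not place the middle layers alike. Tom+ cells lay mostly in the pericentral layers, with 1127 cells in layer 1 and 3126 in layer 5, and Tom- cells in the periportal layers, with 3103 in layer 1 and 1104 in layer 5. Each level is the summed UMIs of a layer or library in CPM. Probes differ between genes, so only levels of the same gene were compared.

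Of the 92 carriers, 85 had at least 1 UMI in hepatocytes and 7 had none (Abca12, Abca16, Slc22a2, Slc22a19, Slco1a5, Slco6c1 and Slco6d1). A further 36 stayed under the minimum for a comparison, a mean of 2 CPM over the sums compared and 50 UMIs in all, and 49 passed it. Together the carriers took 0.679% of hepatocyte UMIs in Tom- and 0.784% in Tom+ cells.

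Promoter windows from 250 bases before to 50 bases after the transcription start were found in the RefSeq table (build GRCm38.p6) for 73 of the 92 genes. The windows shown belong to carriers that the results turn on: Slco1b2 has the most carrier UMIs, Abcc4 had the widest gradient of the carriers past the minimum, Slc22a3 had most of its few UMIs in layer 5, and Abcg5 and Abcg8 are a head-to-head pair. Capitals mark matches, on either strand, to TATAAA (the TATA box), TGACNNNGC (the core of the antioxidant response element) or GCGTG (the core of the aryl hydrocarbon receptor element).
Slco1b2 (chr6:141629268-141629567, + strand): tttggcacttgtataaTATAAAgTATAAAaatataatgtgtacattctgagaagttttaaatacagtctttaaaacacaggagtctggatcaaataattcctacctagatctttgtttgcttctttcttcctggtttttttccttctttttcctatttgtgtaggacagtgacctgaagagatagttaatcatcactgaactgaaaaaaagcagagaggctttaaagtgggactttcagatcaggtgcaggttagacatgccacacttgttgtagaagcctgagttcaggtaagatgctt
Slc22a3 (chr17:12507655-12507954, - strand): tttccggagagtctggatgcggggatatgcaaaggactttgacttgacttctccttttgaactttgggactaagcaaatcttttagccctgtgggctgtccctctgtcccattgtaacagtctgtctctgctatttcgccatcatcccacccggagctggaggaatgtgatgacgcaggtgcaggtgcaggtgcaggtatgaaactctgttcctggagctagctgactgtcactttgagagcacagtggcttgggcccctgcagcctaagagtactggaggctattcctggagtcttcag
Abcc4 (chr14:118706170-118706469, - strand): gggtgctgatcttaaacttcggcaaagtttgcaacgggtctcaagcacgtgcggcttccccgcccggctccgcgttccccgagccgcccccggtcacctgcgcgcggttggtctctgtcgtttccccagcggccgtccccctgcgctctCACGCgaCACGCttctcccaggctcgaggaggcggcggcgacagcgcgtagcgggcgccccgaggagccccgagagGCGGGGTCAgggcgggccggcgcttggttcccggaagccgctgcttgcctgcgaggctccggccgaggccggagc
Abcg5 (chr17:84682962-84683261, - strand): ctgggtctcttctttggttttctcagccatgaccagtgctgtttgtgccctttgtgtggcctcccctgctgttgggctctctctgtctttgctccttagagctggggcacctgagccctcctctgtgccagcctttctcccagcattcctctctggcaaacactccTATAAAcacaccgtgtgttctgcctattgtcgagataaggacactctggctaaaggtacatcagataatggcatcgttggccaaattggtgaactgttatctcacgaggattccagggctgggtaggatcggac
Abcg8 (chr17:84682871-84683170, + strand): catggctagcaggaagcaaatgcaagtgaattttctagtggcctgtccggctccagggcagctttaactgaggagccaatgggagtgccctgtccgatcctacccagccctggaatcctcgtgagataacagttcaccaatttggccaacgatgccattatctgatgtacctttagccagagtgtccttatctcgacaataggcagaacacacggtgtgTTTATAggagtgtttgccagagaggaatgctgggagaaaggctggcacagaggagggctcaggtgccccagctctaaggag
Abcg8 has 2 RefSeq windows, and the window nearest the Abcg5 start was taken. The RefSeq starts of Abcg5 and Abcg8 used here lie 110 bases apart on opposite strands and their windows share 209 bases. This distance and overlap follow from that choice, and the capitals in both windows mark the same TATAAA match. The Abcg8 gene start in GENCODE vM21 lies 6819 bases from this RefSeq start, and the other printed windows start from the same base in both annotations. The Abcc4 window holds GCGTG on the reverse strand at 2 places and TGACNNNGC at 1 place, and the Slco1b2 window holds TATAAA at 2 places. The Slc22a3 window holds none of these letter strings. Such matches are common: TATAAA is in 13.6% of all 32851 windows of this length, TGACNNNGC in 12.4% and GCGTG in 32.4%. Among the 85 windows of carriers the counts were 16, 11 and 21.

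Along the lobule, 9 of the 49 carriers (18.4%) were at least 1.5-fold higher in layer 5 than in layer 1 in both libraries, against 10.6% of all 9914 genes tested. Among them were Abcc4, Slco1a1, Slco1b2, Abcc3, Abcc2, Slc22a23, Slc22a5 and Slc22a15. In the other direction 5 of 49 (10.2%) were higher in layer 1, against 4.8% of all genes: Abcb1a, Abcg5, Abca2, Slco2b1 and Slco2a1. The remaining 35 met neither rule. Abcc4, Slco1a1 and Slc22a15 were under 2 CPM in layer 1 of both libraries and passed the minimum only through the layers where they were higher, so these 3 had to differ in that direction, and the counts are a description of the carriers that passed. The median log2 ratio of layer 5 over layer 1 was 0.13 in Tom- and 0.19 in Tom+ cells for the carriers, and 0.17 and 0.22 for all genes. Median-of-ratios scaling lowers the all-gene medians to 0.04 in each library. Under it the calls were 7 pericentral and 6 periportal, because Slc22a5 and Slc22a15 fell below 1.5-fold and Abca8a passed it.

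**Figure D1:**
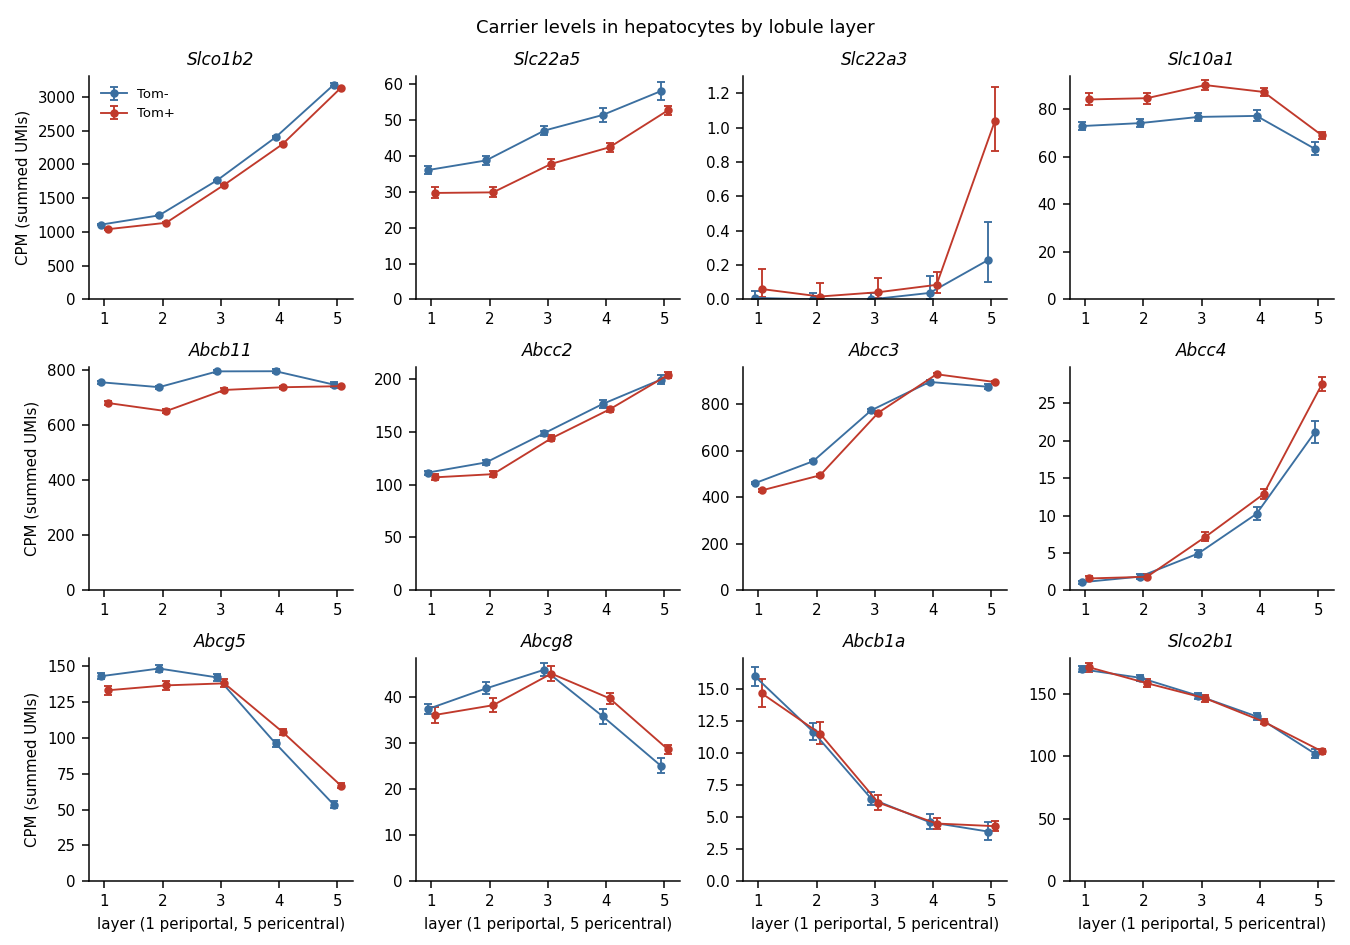
Levels of 12 carriers in hepatocytes of layers 1 (periportal) to 5 (pericentral), in CPM on the vertical axis, for the Tom- (blue) and Tom+ (red) library. Points are summed UMIs of a layer and bars are 95% Poisson intervals; Slco1b2, Slc22a5 and Abcc4 climb towards layer 5, Abcg5 and Abcb1a decline, and Slc22a3 stays near 0 before layer 5.

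Among uptake carriers, organic anion carriers differed in gradient. Slco1b2, the main hepatic carrier of the organic anion family in mice and a route for conjugated bilirubin and bile acids (chr6:141629518-141686646), rose from 1107 to 3181 CPM in Tom- and from 1040 to 3134 CPM in Tom+ cells. Its gradient was 2.87-fold and 3.01-fold. Slco1a1, another organic anion carrier, was at only 2.51 and 3.04 CPM over all hepatocytes, and its level went from 1.06 CPM in layer 1 to 3.99 in layer 5 of Tom- cells and from 0.761 to 3.52 CPM in Tom+ cells. Its neighbour Slco1a4 was at 84.9 and 90.1 CPM and met neither rule. Slco1a1, Slco1a4, Slco1a5 and Slco1a6 are close paralogs, so the split between them is uncertain.

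The bile acid carrier itself was nearly level. Slc10a1 (NTCP), which takes up conjugated bile acids together with sodium, was 72.9, 74.2, 76.8, 77.2 and 63.3 CPM in layers 1 to 5 of Tom- cells. In Tom+ cells it was 84.1, 84.7, 90.2, 87.3 and 69.1 CPM. Layer 5 was the lowest in both libraries, with log2 ratios to layer 1 of -0.20 and -0.28. Slc10a2, the apical bile acid carrier of ileum and bile ducts, was at 37.7 and 38.7 CPM, with ratios of -0.28 and -0.33. Slc10a5, an orphan member of the same family, was flat with ratios of -0.01 and -0.00.

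Further carriers of the SLC22 family rose pericentrally by smaller amounts. Slc22a5 (OCTN2), the carnitine carrier, went from 36.0 to 58.1 CPM in Tom- and from 29.7 to 52.7 CPM in Tom+ cells. Slc22a23 went from 67.0 to 116 CPM and from 63.0 to 120.1 CPM. Slc22a7 (OAT2), an organic anion carrier, had a different shape: it peaked in layer 3 at 24.2 CPM in Tom- and 28.8 CPM in Tom+ cells and was 11.2 and 10.8 CPM in layer 5. Slc22a30 rose by log2 0.31 and 0.44 and did not reach 1.5-fold. Its neighbours on chromosome 19, Slc22a26 to Slc22a29, lie within 624.1 kb of one another with it and differed in direction: Slc22a26 had log2 ratios of -0.44 and -0.67, and Slc22a28 had 0.52 and 0.90. Slc22a29, on 306 and 530 UMIs and under the minimum, had 3.05 and 2.93. These genes are near copies of each other, so their split is uncertain.

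Slc22a3 (OCT3), a low-affinity cation carrier (chr17:12418960-12507704), was at the edge of detection in hepatocytes. It had 11 UMIs in Tom- hepatocytes, of which 1, 0, 0, 2 and 8 fell in layers 1 to 5. In Tom+ hepatocytes it had 139 UMIs, distributed as 3, 1, 3, 9 and 123. Layer 5 therefore held most of its UMIs in both libraries, at 0.228 CPM in Tom- and 1.04 CPM in Tom+ cells. The gene was under the minimum and is described from these counts alone.

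**Figure D2:**
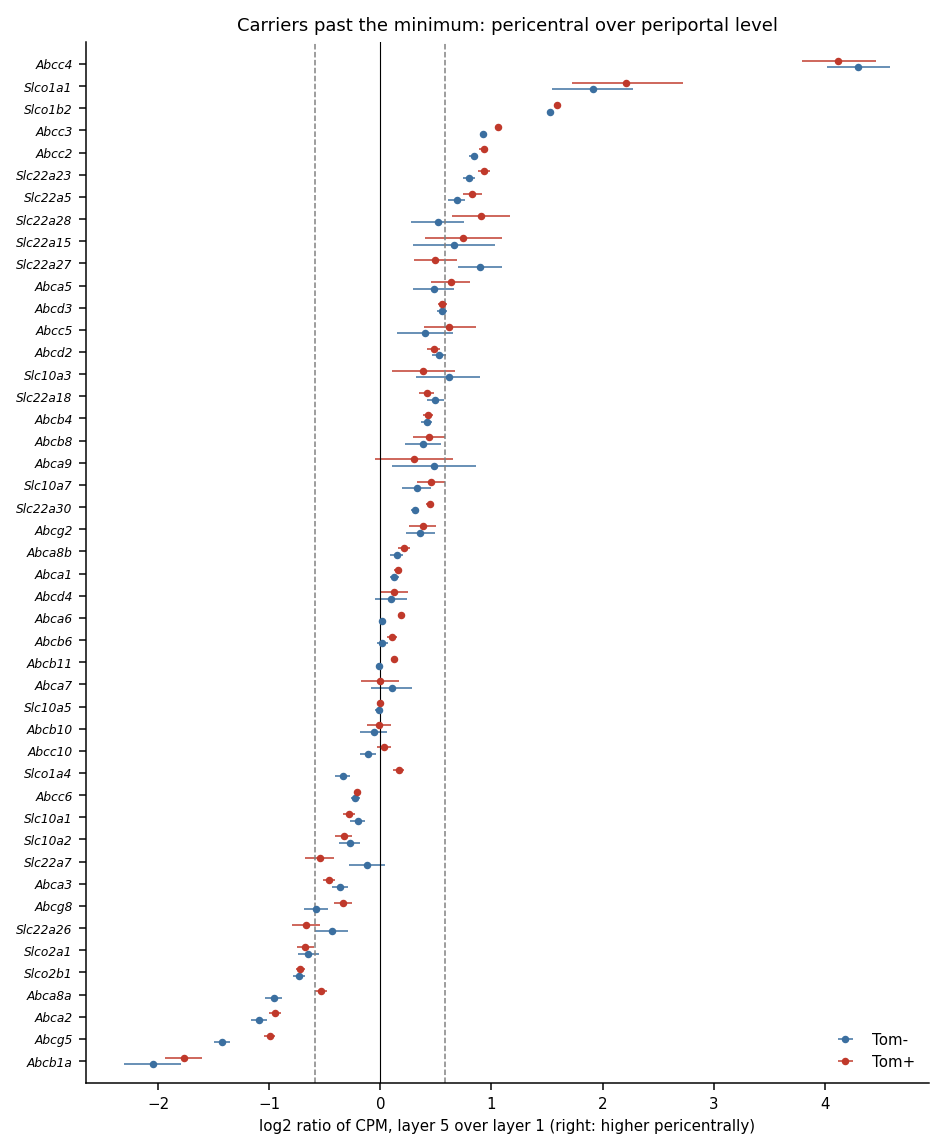
Log2 ratio of CPM in layer 5 over layer 1 (horizontal axis) for carriers past the minimum, in Tom- (blue) and Tom+ (red) hepatocytes, with 95% counting intervals; dashed lines mark 1.5-fold. Abcc4 lies farthest right at 4.30 and 4.12 and Abcb1a farthest left at -2.05 and -1.77.

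Canalicular pumps differed in gradient. Abcb11 (BSEP), the bile salt export pump (chr2:69238282-69342616), was 757, 739, 796, 797 and 748 CPM in layers 1 to 5 of Tom- cells and 681, 652, 729, 739 and 742 CPM in Tom+ cells. Its layer 5 over layer 1 ratio was -0.02 (interval -0.04 to 0.00) in Tom- and 0.12 in Tom+ cells. Abcb4 (MDR2), which moves phosphatidylcholine into bile, rose by log2 0.42 and 0.43. Abcc2 (MRP2), which exports conjugated bilirubin and glutathione conjugates (chr19:43782192-43840740), rose from 111 to 199 CPM in Tom- and from 107 to 204 CPM in Tom+ cells, or 1.79-fold and 1.91-fold. Abcg2 (BCRP), a pump for urate and sulfated conjugates, rose by 0.36 and 0.38.

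The sterol pump ran the other way. Abcg5 and Abcg8 form the heterodimer that secretes cholesterol and plant sterols into bile, and the windows printed for them above overlap. Abcg5 (chr17:84658234-84683011) was 143, 149, 142, 96.2 and 53.3 CPM in layers 1 to 5 of Tom- cells and 133, 137, 138, 104 and 66.8 CPM in Tom+ cells. It thus stayed level over layers 1 to 3 and fell by 1.42 and 1.00 on the log2 scale by layer 5. Abcg8 peaked in layer 3 at 45.9 and 45.1 CPM and was lowest in layer 5 at 25.1 and 28.6 CPM, with ratios of -0.58 and -0.33 to layer 1. Abcb1a (chr5:8660077-8748575), 1 of 2 genes for the multidrug pump P-glycoprotein, had the steepest periportal gradient of the 49 carriers: it was 16.0, 11.7, 6.44, 4.61 and 3.88 CPM in layers 1 to 5 of Tom- cells and 14.7, 11.5, 6.13, 4.50 and 4.30 CPM in Tom+ cells. Its copy Abcb1b had 100 and 187 UMIs, was under the minimum and had ratios of 1.47 and 0.90. Abcb1a, Abcb1b and Abcb4 stand side by side within 299.2 kb of chromosome 5, and the close copies Abcb1a and Abcb1b may share signal.

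Of the other Abcc pumps described, Abcc3 and Abcc4 were pericentral and Abcc6 was not. Abcc3 (MRP3), which returns glucuronides and bile acids to blood (chr11:94343295-94392997), was 461, 555, 775, 897 and 876 CPM in layers 1 to 5 of Tom- cells and 430, 495, 764, 930 and 896 CPM in Tom+ cells. It was 1.90-fold and 2.08-fold higher in layer 5 than in layer 1. Abcc4 (MRP4), an exporter of bile acids, cyclic nucleotides and nucleoside drugs (chr14:118482692-118706219), was 1.07, 1.83, 4.92, 10.2 and 21.1 CPM in Tom- cells and 1.58, 1.80, 7.13, 12.9 and 27.5 CPM in Tom+ cells. Layer 5 was 19.7-fold (log2 4.30, interval 4.02 to 4.59) and 17.4-fold (4.12, 3.80 to 4.46) above layer 1, the widest gradient of the 49. Abcc6, which mediates ATP release and so pyrophosphate supply, was 217 and 214 CPM in layer 1 and 186 and 185 CPM in layer 5, with ratios of -0.23 and -0.21.

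Lipid and organelle carriers differed in gradient. Abca1, which loads cholesterol onto apolipoprotein A-I, was 184 and 181 CPM in layer 1 and 201 CPM in layer 5 of each library. Abca2, a lipid carrier of the endolysosomal membrane, was the exception among Abca genes called by the rule, falling from 109 to 51.1 CPM in Tom- and from 101 to 52.3 CPM in Tom+ cells. The 5 genes Abca5, Abca6, Abca8a, Abca8b and Abca9 lie within 405.5 kb of chromosome 11, and here too neighbours differed. Abca8a had ratios of -0.96 and -0.53, whereas Abca8b had 0.15 and 0.21, Abca6 0.02 and 0.19, and Abca5 0.48 and 0.63. Abca3, the lamellar body lipid carrier of lung, had -0.36 and -0.46. The peroxisomal carriers of long-chain fatty acids Abcd2 and Abcd3 rose by 0.53 and 0.48 and by 0.56 and 0.56, just under 1.5-fold. Abcd4, for lysosomal cobalamin, had 0.10 and 0.12. Abcb10, a mitochondrial carrier needed for haem synthesis, had -0.06 and -0.02. Some of these small values change sign with the scaling: with median-of-ratios scaling the values of Abca1 and Abcd4 lie below 0 in both libraries.

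Carriers were compared between Tom+ and Tom- hepatocytes with layers weighted equally. The layer-standardised ratio is the mean CPM of the 5 layers in Tom+ over that in Tom- cells. On it 0 of 49 carriers were 1.5-fold higher and 0 were 1.5-fold lower, against 0.364% and 0.0404% of all 9892 genes tested. Calls were rare among all genes, so 0 of 49 is near that share and does not set the carriers apart. No test was run and no p-value is given, since each fraction is 1 library. The median log2 ratio of the carriers was -0.03, with 17 of 49 above 0. That of all genes was -0.01, with 48.0% of the 9892 above 0. For 36 of the 49 the counting interval excluded 0, but differences between mice, sorts and libraries are not in that interval. The share of all genes with such an interval is not given, so this count is a description and not particular to carriers.

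Abcc4 had the highest ratio, 0.38 on the log2 scale (interval 0.30 to 0.46), or 1.30-fold. Its Tom+ over Tom- ratios were 0.56, -0.02, 0.54, 0.33 and 0.38 in layers 1 to 5. Tom+ cells had the more pericentral mean landmark score in layers 1, 3, 4 and 5 (2.41 against 2.18 in layer 5) and not in layer 2. The part of this in the Abcc4 ratios was not tested. Without the 2 hepatocyte clusters of at least 90% Tom+ cells (1942 cells) the standardised Abcc4 ratio was 0.18, and with cells thinned to 5000 UMIs 0.49. With layer limits set within each library the ratio was 1.33 and so past 1.5-fold, and the count of carriers higher in Tom+ cells was then 2. Such limits put equal shares of each library into every layer and do not match position between the libraries. The value was also 1.33 over all hepatocytes without standardisation, so it is no separate result about Tom+ cells. Slc10a1 was 0.19 (0.16 to 0.21) and Slc22a7 0.17 (0.12 to 0.22). Slc22a18 was 0.15.

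At the other end, Slc22a5, the carnitine carrier, had -0.27 (interval -0.30 to -0.23). It was lower in Tom+ than in Tom- cells in each layer, by -0.28, -0.38, -0.32, -0.28 and -0.14. Abca7, Abcb6, Abca9 and Slc10a3 followed at -0.18, -0.17, -0.16 and -0.14. The bile salt pump Abcb11 had -0.12, Abcb4 -0.10, Abcc2 -0.04, Abcc3 -0.02 and Slco1b2 -0.06. In fold terms Abcb11 was 1.08-fold and Abcb4 1.07-fold lower in Tom+ cells, and with 1 library per fraction such differences cannot be told apart from those between mice or sorts. In 5 of the 49 carriers the ratio was below 0 in layer 1 and above 0 in layer 5 with both counting intervals off 0, against 1.79% of all genes, and in 0 carriers and 0.97% of genes it was the reverse.

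**Figure D3:**
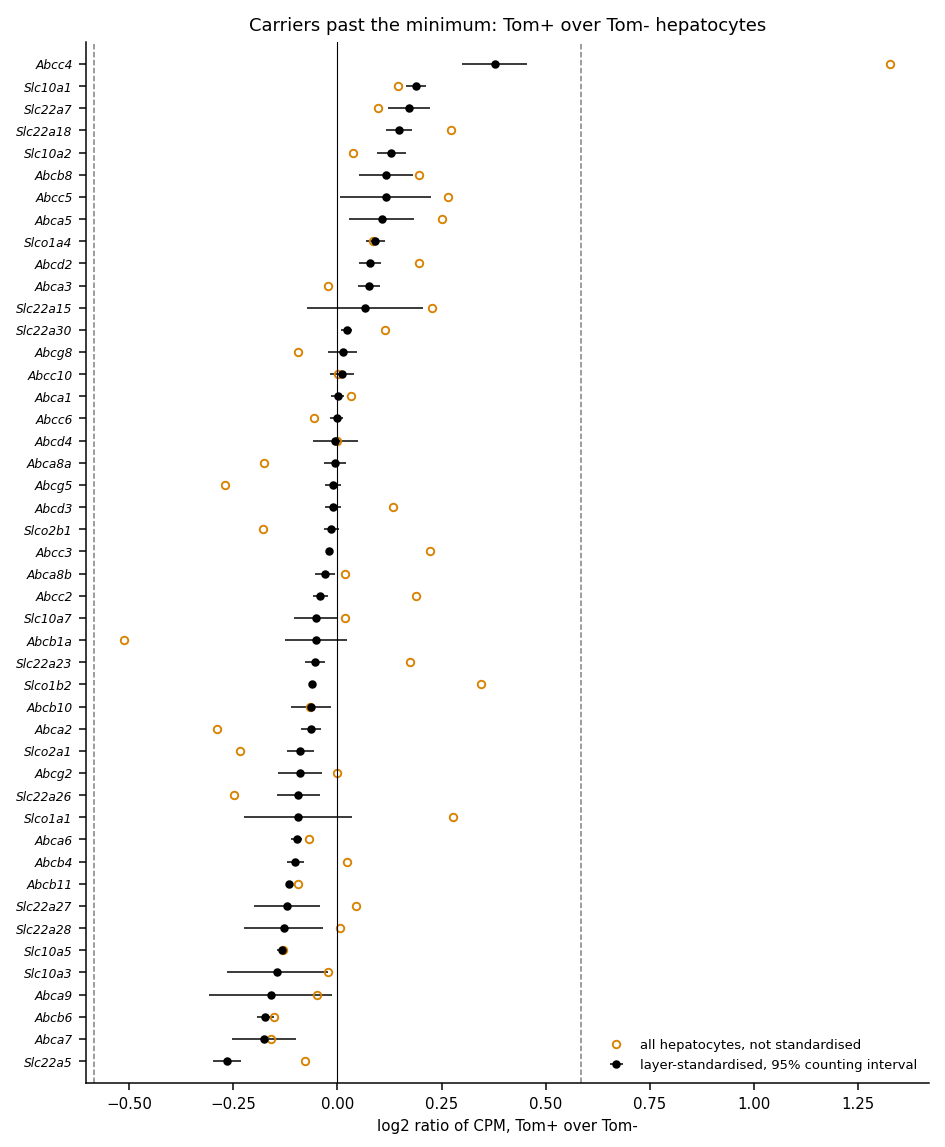
Log2 ratio of Tom+ over Tom- hepatocytes (horizontal axis) for carriers past the minimum. Black points are layer-standardised with 95% counting intervals, open orange points are all hepatocytes without standardisation, and dashed lines mark 1.5-fold; every black point lies within the lines, while the orange point of Abcc4 lies beyond them.

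Without equal weights the layer composition enters the ratio. Over all hepatocytes without regard to layer, Abcc4 was 5.22 CPM in Tom- and 13.1 CPM in Tom+ cells (log2 1.33). This pericentral carrier was past 1.5-fold in that comparison. The periportal carrier Abcb1a was at -0.51 there. Tom+ cells lay mostly in pericentral layers, so a gradient by layer largely sets the direction of such a ratio. These values are therefore no separate result about Tom+ cells.

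Slc22a3 stood apart on few counts. Its layer-standardised ratio was 2.03 (interval 1.18 to 2.87), and in layer 5, where most of its UMIs were, 2.19 (1.16 to 3.43). The standardised ratio was 2.15 without the clusters of at least 90% Tom+ cells and 0.99 with cells thinned to 5000 UMIs. Thinning leaves still fewer UMIs, and 0.5 UMIs are added to each layer sum, which draws a ratio of few counts towards 0. With layer limits set within each library, which do not match position between the libraries, the ratio was 3.34. Tom+ cells of layer 5 had a slightly more pericentral mean landmark score (2.41) than Tom- cells (2.18), and the part of this in the ratio was not tested.

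Within Tom+ cells, 2 clusters carried zone 3 genes. Cluster 8 held 1524 Tom+ and 38 Tom- cells and was led by H2-Q1, Snhg11 and Ces2c, and cluster 0 held 2472 Tom+ and 1219 Tom- cells and was led by Slc1a2, Glul and Lgr5. The carriers were left out of the genes used for clustering, but the comparison was chosen after the data were seen and is a description. Of 51 carriers past the minimum, 5 were at least 1.5-fold higher in Tom+ cells of cluster 8 and 0 were lower, against 4.01% and 1.32% of 9971 genes. The sterol pump genes were among them, with Abcg5 at 111 CPM in cluster 8 and 55.3 CPM in cluster 0, and Abcg8 at 41.7 and 24.5 CPM. Abcb1a was 7.24 and 2.94 CPM, Slco1a4 130.0 and 79.2 CPM, and Abca8a 76.3 and 47.7 CPM. The mean landmark score was 1.65 in cluster 8 and 2.30 in cluster 0. Of the 10 leading genes of cluster 0, 6 are zone 3 landmarks, against 1 for cluster 8. The score difference thus partly follows from how the clusters are made and cannot be read as position alone. The part of position in these ratios was not tested.

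**Figure D4:**
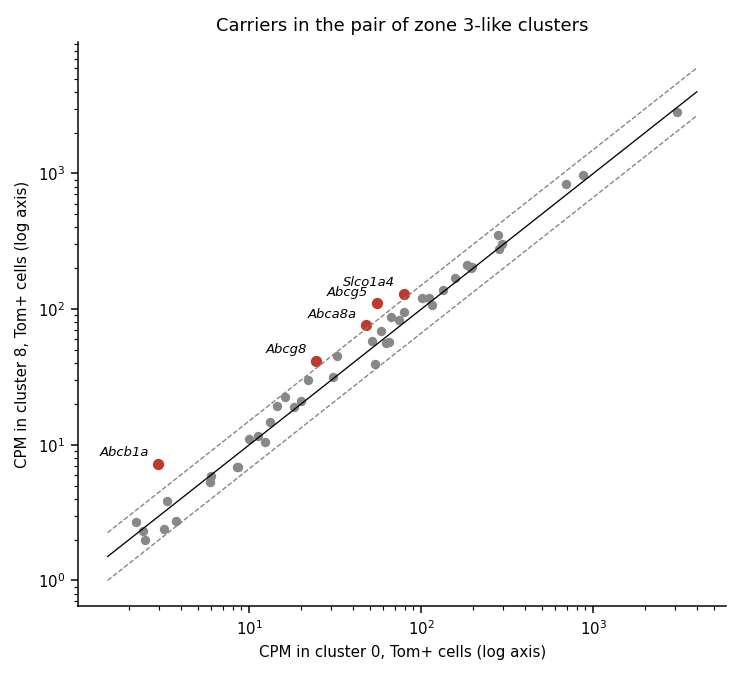
Levels of carriers in Tom+ cells of hepatocyte cluster 8 (vertical axis) and cluster 0 (horizontal axis), in CPM on log axes, with dashed lines at 1.5-fold. The 5 named carriers lie above the upper line and no carrier lies below the lower one.

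The lists of genes that work with the carriers were read in the same way. Of 14 bile acid synthesis and conjugation genes, all 14 passed the minimum, 4 were pericentral and 1 periportal. The shares among all 9914 genes tested, for this and the later lists, were 10.6% pericentral and 4.8% periportal. Cyp7a1, the rate-limiting enzyme of bile acid synthesis, was 20.8 CPM in layer 1 and 944 in layer 5 of Tom- cells and 41.5 and 1107 CPM in Tom+ cells, and Cyp27a1, the enzyme of the alternative pathway, rose from 308 to 975 and from 306 to 986 CPM. Cyp8b1, the sterol 12-hydroxylase that sets the share of cholic acid, met the periportal rule but peaked in layer 3, at 29.4, 53.3, 59.99, 38.3 and 18.3 CPM in layers 1 to 5 of Tom- and 53.7, 76.5, 83.8, 50.9 and 23.0 CPM of Tom+ cells. Its list also held Slc27a5, which activates bile acids for conjugation and had ratios of -0.52 and -0.58. The list had a median Tom ratio of 0.04, with Cyp8b1 at 0.53 (interval 0.50 to 0.56) the highest, followed by Baat, the conjugating enzyme, at 0.32. Of 16 receptors and regulators, 15 passed, 3 were pericentral and 0 periportal. Nr1i3 (CAR), a sensor of foreign compounds, rose from 16.1 to 221 CPM in Tom- and from 13.6 to 267 CPM in Tom+ cells, and Ahr, the dioxin receptor, from 19.2 to 92.4 and from 21.2 to 116 CPM. Nr1h4 (FXR), the bile acid receptor, had ratios of -0.10 and 0.12, and Nr0b2 (SHP), which it induces, had the lowest Tom ratio of the list at -0.39.

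Of 10 other carriers and flippases, 7 passed the minimum. Slc47a1 (MATE1), which passes organic cations into bile, was periportal at -0.68 and -0.65. Slc51a had 0 UMIs in hepatocytes, and its partner Slc51b was under the minimum. Of 10 anchors of the canalicular membrane all passed. Pdzk1, a scaffold that binds the tails of several carriers, rose from 68.0 to 254 CPM and from 71.7 to 229 CPM, and the tight junction gene Cgn fell by 0.87 and 0.80. In these 4 lists 0 genes reached 1.5-fold between Tom+ and Tom- cells in either direction. Among all 9892 genes tested 0.364% were higher and 0.0404% lower, so 0 calls are near that share.

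Carriers of other cell types were read from sub-clusters of the cell clusters that were low in genes and held markers of other cell types, which were not counted as hepatocytes. For each of 4 marker lists the sub-cluster with the highest marker sum was taken. These were sub-cluster 4 for endothelial markers (194 cells, led by Sema3g and Vwf), sub-cluster 1 for macrophage markers (255 cells, led by Teddm3 and Il1b), sub-cluster 2 for stellate markers (243 cells, led by Mgp and Dpep1) and sub-cluster 10 for cholangiocyte markers (32 cells, led by Reg3g and Dmbt1). They are given by number, not named as cell types, because their depth was low, with median UMIs of 3928 to 5799 a cell, and no gene of the fixed marker lists was among their 10 leading genes. The sort was for hepatocytes, and hepatocyte RNA was abundant in all of them: Alb, Apoa1, Ttr, Fgb and Serpina1c stood at 56.0% to 88.5% of their hepatocyte level in sub-cluster 4, 51.2% to 85.0% in sub-cluster 1, 64.2% to 117% in sub-cluster 2 and 29.7% to 54.0% in sub-cluster 10.

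In all, 11 carriers were at least 4-fold higher than in hepatocytes with at least 10 UMIs in a sub-cluster. Of these 8 were under 2 CPM in hepatocytes and passed the minimum only through the sub-cluster where they were high (all but Abca7, Abca9 and Abcc5), so their counts are a description and support nothing about the carriers as a group. There were 8 of 57 tested in sub-cluster 4 (13.8% of all genes tested), 8 of 54 in sub-cluster 1 (15.2%), 8 of 55 in sub-cluster 2 (13.4%) and 5 of 59 in sub-cluster 10 (12.2%). In sub-cluster 4 the highest ratios were those of Slc10a6, a carrier of sulfated steroids (14 UMIs, 14.2 against 0.154 CPM in hepatocytes), Slco3a1 (56.8 against 0.696 CPM) and Abcg1, which passes cholesterol to high-density lipoprotein (29.4 against 0.459 CPM). Slco2a1, the prostaglandin carrier, was 3.29-fold higher there and so under the rule. In sub-cluster 1 Abcg3 led with 189 CPM (interval 168 to 212) against 0.582 in hepatocytes, or 325-fold, followed by Abcg1 with 93.2 CPM (203-fold) and Abcc1 (MRP1), the leukotriene exporter, with 60.0 CPM (108-fold).

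In sub-cluster 2 Abcc9, the sulfonylurea receptor subunit of vascular potassium channels, reached 269 CPM (248 to 292) against 1.95, or 138-fold, with Slco3a1 at 58.3 CPM and Slc22a17 at 15.9 CPM behind it. In sub-cluster 10 Abcb1b led with 92.4 CPM on 25 UMIs, 257-fold above hepatocytes, followed by Slco3a1 (118 CPM) and Slc22a17 (48.1 CPM). The libraries differed there: Slco3a1 was 84.5 CPM in Tom- and 149.7 CPM in Tom+ cells, and Slc22a17 69.1 and 28.5 CPM. The 25 UMIs of Abcb1b were 18 in Tom- cells (138 CPM) and 7 in Tom+ cells (49.9 CPM), so the Tom+ cells alone were under the limit of 10 UMIs. Its copy Abcb1a was also higher there than in hepatocytes, at 29.6 against 8.48 CPM on 8 UMIs, and was not called. Abcc1, Abcc5 and Slc22a17 were called in all 4 sub-clusters. In sub-cluster 10 Abcc1 had 6 UMIs in Tom- and 4 in Tom+ cells, and Slc22a17 had 9 and 4. Neither library alone reached the limit of 10 UMIs for these genes there. Each library alone gave 167 and 273 CPM for Abcg3 in sub-cluster 1, and 254 and 314 CPM for Abcc9 in sub-cluster 2, in Tom- and Tom+ order.

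**Figure D5:**
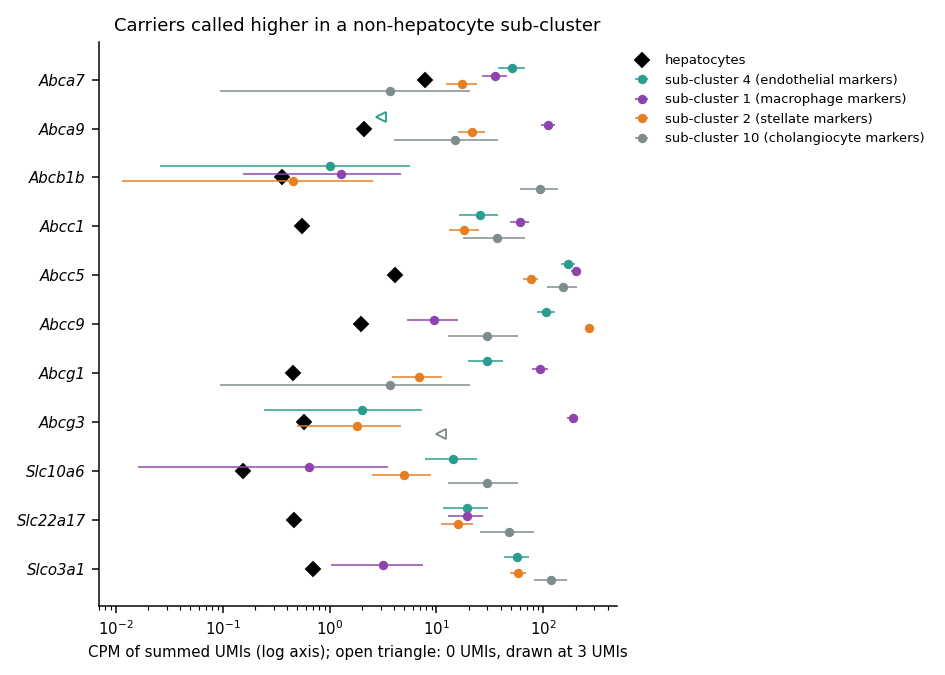
Levels in CPM on a log axis of the 11 carriers called higher in a sub-cluster, for hepatocytes (black diamonds) and the 4 sub-clusters (coloured points with 95% Poisson intervals). Open triangles are counts of 0 drawn at the level of 3 UMIs; Abcg3 is far to the right in sub-cluster 1 and Abcc9 in sub-cluster 2.

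Carriers of hepatocytes were also counted in these sub-clusters. Of 25 carriers at 50 CPM or more in hepatocytes, the median level in sub-clusters 4, 1, 2 and 10 was 49.8%, 47.8%, 60.1% and 36.3% of that in hepatocytes. Slc10a1 was at 58.7%, 52.4%, 62.0% and 42.7%, and Abcb11 at 40.9%, 33.3%, 49.2% and 30.4%. Levels within or below the percentages of the 5 hepatocyte genes were read as background and not as expression. Above the range of hepatocyte RNA in sub-cluster 1 were 6 of the 25, led by Abca1 at 178%, with Abcc3 at 121%. In sub-cluster 10 there were 5, led by Abcc10 at 150.2% on 24 UMIs, Abca3 at 134% and Abca2 at 122%. In sub-cluster 4 there was 1, Abca3 at 98.7%, and in sub-cluster 2 there were 0. The share of all genes above the same ranges is not given, so these counts are a description and no result about the carriers. Sums of other-cell markers in the hepatocyte layers themselves ran from 54.5 to 83.1 CPM for endothelial and from 125 to 238 CPM for macrophage markers, lower in Tom+ than in Tom- cells in every layer. Stellate markers rose from 44.6 CPM in layer 1 to 87.3 in layer 5 of Tom- and from 38.0 to 81.9 CPM of Tom+ cells, and were higher in Tom+ cells in layers 3 (76.9 against 76.0) and 4 (94.5 against 85.0). Cholangiocyte markers fell from 29.4 to 13.0 and from 26.6 to 13.3 CPM. Low carriers of hepatocytes that these sub-clusters hold at high level (Abca7, Abca9, Abcc5) therefore carry an unknown part of such RNA, and its part in their layer and Tom ratios was not tested.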

How the data were processed

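Livers of CCl4-treated p16-Tom mice were measured by probe-based single-cell RNA sequencing of fixed cells (10x Flex), in 1 Tom- and 1 Tom+ library. The authors deposited raw UMI counts per gene and cell, made with Cell Ranger 7.2.0, the mm10 genome and a mouse probe set with added tdTomato probes.

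From these, cells with 2000 to 10000 genes, at most 100000 UMIs and a mitochondrial fraction of at most 0.05 were kept (20159 of 23220 Tom- and 13378 of 16339 Tom+ barcodes), after the study's stated limits. Cells were clustered with scanpy 1.11.5 and leidenalg 0.10.2 on Python 3.11.15 (2000 variable genes, 30 components, 20 neighbours, resolution 0.8), without the carriers. The clusters of all cells and of hepatocytes were also made without the added tdTomato, L1Md_A and p16 features, which were not left out for the sub-clusters. Clusters low in genes or high in Ptprc, Dcn or Pecam1 were not used as hepatocytes. Scrublet called 0 doublets, which were therefore not removed. Hepatocytes were cut into 5 layers by 12 zone 1 and 11 zone 3 landmarks, and 10.58% of cells lay within 0.05 of a limit.

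UMIs were summed per library, layer or sub-cluster, with exact Poisson or conditional 95% intervals (scipy 1.17.1). These cover counting error only, and with 1 library per group no test was made. Calls needed a mean of 2 CPM, 50 UMIs and 1.5-fold, in both libraries for layers. For sub-clusters they needed 4-fold and 10 UMIs, and this UMI limit and the sub-clusters were chosen after the data were seen. The Tom+ over Tom- ratio and its calls were tested on simulated sums with counting error only. The layer and sub-cluster calls were not simulated. Carriers named were the 5 largest and 5 smallest ratios of a comparison, carriers with well known roles in liver, the 3 largest ratios of each sub-cluster and the 2 largest and 2 smallest of each pathway list. Slc10a2, Slc10a5, Abca5, Slc22a15, Slc22a23, Slc22a26, Slc22a28, Slc22a29, Slco2a1, Nr1h4 and the other called carriers were named after their values were seen where that rule did not name them. The carriers and gene lists were chosen with earlier results of these data known. Alternatives changed the scaling, minimum, fold, layers, depth and clusters used. Gene coordinates are GENCODE vM21 on mm10. A few carriers are not reported here by name.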

Additional observations from a re-analysis of the deposited data

Results flagged for a closer look

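For 5 of the 49 carriers past the minimum the Tom+ over Tom- log2 ratio was below 0 in layer 1 and above 0 in layer 5, with both counting intervals off 0, against 1.79% of 9892 genes. The opposite pattern was met by 0 carriers and 0.97% of genes. Whether an interval is off 0 depends on the UMIs of the gene, and carriers and other genes were not matched for them. Slco1a4 went from -0.09 to 0.42, Abcg5 from -0.10 to 0.32 and Abca8a from -0.17 to 0.25. Abcc3 went from -0.10 to 0.03, and Slc22a30 from -0.07 to 0.06. The difference between layers was not tested, since each fraction is 1 library. The layer 5 over layer 1 ratio of Slco1a4 was -0.34 in Tom- and 0.16 in Tom+ cells, with both counting intervals off 0. Without the 2 clusters of at least 90% Tom+ cells these gradients were -0.32 and -0.02, and with median-of-ratios scaling -0.47 and -0.01. Without the same clusters the gradients of Abca8a were -0.93 in Tom- and -0.73 in Tom+ cells, and those of Abcg5 -1.38 and -1.07.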

How the results depend on the processing

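No paired analysis was possible because Tom- and Tom+ had 1 library each, and for the same reason no replicate could be left out. Of the counts of called carriers, 63 of the alternative values stayed within 1.5 times the main count and 13 did not. Many of the 63 are counts by Tom fraction that were 0 in both, and stricter limits cannot raise a count from 0. The 5 periportal carriers became 3 with 3 layers and 3 with layer limits set within each library. Without a minimum level there were 21 pericentral carriers, 3 higher and 2 lower in Tom+ cells. At 2-fold there were 4 pericentral and 1 periportal carriers, and at 1.25-fold 21 pericentral, 9 periportal and 1 higher in Tom+ cells. Carriers higher in Tom+ cells numbered 2 without layer standardisation and 2 with limits set within each library, and neither of these matches position between the libraries. At 2-fold 18 carriers were higher in a sub-cluster. The looser and stricter folds and minimum change the counts by construction, and for the others the cause was not tested. Of 468 alternative Tom ratios of carriers whose interval excluded 0, 18 changed sign. Depth limits the sub-clusters, where 1 UMI is 0.456 to 3.70 CPM. Of the 36 detected carriers under the minimum some had few UMIs, and others, such as Abcb9 with 564 and 694 UMIs, were under 2 CPM at a level that more depth would not change.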

Other observations

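Slc22a3 was too low for a call but was the carrier with the widest Tom+ over Tom- ratio described here. In Tom+ cells it had 54 UMIs (0.886 CPM) in hepatocyte cluster 8 and 67 UMIs (0.741 CPM) in cluster 0, and in Tom- cells of cluster 0 it had 6 UMIs (0.171 CPM). Without layer standardisation its log2 ratio was 3.55. With 1 library per fraction this difference was not tested.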
